A study of Mus musculus with 36 samples.

Results

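The response of C57 mouse liver to acetaminophen, 6 h after the dose, was compared with the response of 3 other strains. For each gene, the change in log2 signal from 0 h to 6 h was taken in C57, and the mean of the same change in SJL, SMJ and DBA was subtracted from it. This value is called the difference below, and a difference of 1 on the log2 scale is a 2-fold larger rise or smaller fall in C57. The mice were chosen by their labels alone: 24 of the 36 in the series, of which 6 were C57 and 18 were of the other strains. Of 14057 genes tested, 310 (2.21%) had a higher response in C57 and 344 (2.45%) a lower one at an adjusted p under 0.05 (limma, Benjamini-Hochberg adjustment over all genes tested). The words higher and lower response are used below for these genes only.

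RNA had been taken from whole liver and measured on 1-colour Affymetrix arrays, 1 mouse to an array. All mice had been fasted overnight, and those sampled at 3 h and 6 h had received a single dose of 300 mg/kg acetaminophen into the abdomen, while those at 0 h were sampled before it. The strains are labelled SJL, SMJ, DBA and C57, with 3 mice for each strain and time, and the design text of the series calls SJL resistant to the injury and the others sensitive. No animals sampled at 6 h without the drug are used here, so the effects of the drug, of the time of day and of a longer fast cannot be told apart in any strain. Ages and sexes are not given in the sources used here. P values measure the spread between mice of a group, and 3 arrays a group limit their precision.

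Acetaminophen is made harmless in the liver mostly by coupling to glucuronic acid or sulfate. A part of it is oxidised by cytochrome P450 enzymes, chiefly CYP2E1 and CYP1A2, to a reactive quinone imine that glutathione captures until the supply runs out. The enzymes are most abundant in the hepatocytes around the central vein, the pericentral cells, where acetaminophen injury is centred. Proteins that are modified or unfolded call on chaperones, whose genes are switched on by the heat shock factor HSF1.

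The arrays were first set side by side. Correlations between arrays of the same group lay between 0.916 and 0.964. Median signals at 6 h were 32.26 to 36.71 in C57 and 29.56 to 32.53 in the other strains, and were 28.84 to 32.23 in C57 at 0 h. The share of values below the offset of 2.77, which every signal received before its log2, was 6.04% to 7.86% on the C57 arrays at 6 h and 9.62% to 11.5% on the others at 6 h. The median difference over all genes tested was 0.09, and it was 0.22 over the 5299 genes whose highest group mean was under 100, against 0.04 over the brighter ones. When each array was divided by its 75th percentile instead, 203 genes had a higher and 482 a lower response, so that higher calls made up 29.6% of all calls in place of 47.4%. The part of these array properties in single results was not tested.

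The livers also differed in transcripts of the exocrine pancreas. Of 23 textbook genes of pancreatic acinar cells, which secrete digestive enzymes, 19 were tested, in a list written after their uneven levels had been seen. Their summed signal was 937.6, 13230 and 583.8 in the C57 mice at 0 h and 56820, 167100 and 1767 in those at 6 h. It was 46540 to 93780 in SJL, 3118 to 38850 in SMJ and 12970 to 158800 in DBA at 0 h, and 795.2 to 12920, 621.9 to 160100 and 1147 to 93450 in the same order at 6 h. The sum was thus high in mice C57233 and C57236 at 6 h and low in C57180 and C57182 at 0 h. All 19 differences were above 0 (2.41 to 8.28, median 6.23), but 0 passed limma's threshold (adjusted p 0.157 to 0.576), while 17 had an unadjusted p under 0.05. With the log2 of this sum as a covariate in the fit, a step added after the data were seen, 149 genes had a higher and 140 a lower response. Single mice also weighed on the counts. Without C57180 there were 198 higher and 216 lower calls, without C57182 139 and 204, without C57233 175 and 240, and without C57236 119 and 178. Below, values without a mouse or with the covariate are given where they end the call of a gene described with its levels. With the covariate 47 of 77 named genes that were called kept their call.

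**Figure D1:**
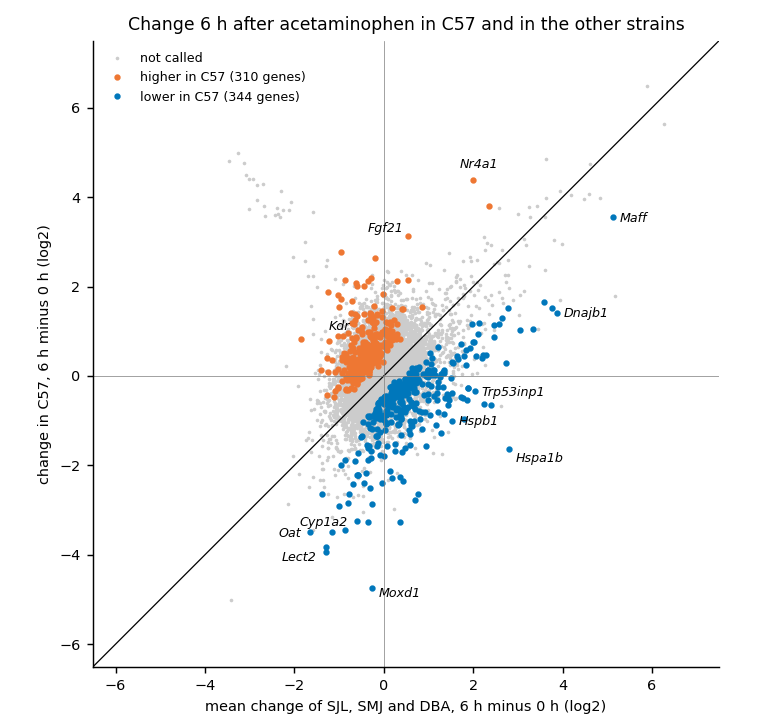
Change in log2 signal from 0 h to 6 h in C57 (vertical axis) against the mean change of SJL, SMJ and DBA (horizontal axis), 1 point per gene, with the line of equal change. The 310 genes with a higher response in C57 lie above the line and the 344 with a lower one below it, and a band of uncalled grey points lies apart at the top left, where the pancreatic acinar genes fall (median change 3.76 in C57 and -2.66 in the others).

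The plot of the changes shows that most called genes had a called change in C57 or in the other strains and not in both. Of the genes with a lower response, 48.3% rose in the mean of the other strains with no call in C57, and 94 fell in C57 with no call in the others. Another 30 fell in both but further in C57, 14 rose in both but less in C57, 31 fell in C57 and rose in the others, and 9 were called in neither. Of the genes with a higher response, 53.5% fell in the others with no call in C57, 87 rose in C57 with no call in the others, and 23 moved in opposite ways. The own change of C57, which rests on 3 mice a time, was called for 619 genes upwards (4.4%) and 823 downwards (5.85%). The mean change of the other strains, with 9 mice a time, was called for 1636 upwards (11.6%) and 2704 downwards (19.2%). Since these counts rest on unequal numbers of mice, their sizes are not compared. The split of the called genes above has the same limit, as a change of equal size is called less readily in C57.

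Differences of at least 2-fold were found for 112 of the higher and 174 of the lower genes. Against SJL, SMJ and DBA taken singly, 365, 629 and 284 genes were called, and 18 higher and 48 lower genes were called against each of them. SJL, SMJ and DBA differed among themselves at 172 genes (1.22%, limma F test), among which were 12 of the higher and 28 of the lower genes. At 3 h the same comparison by limma called 0 genes and put 1133 at an unadjusted p under 0.05, a level that 2709 genes reached at 6 h.

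The levels at each end show where the difference lay. C57 differed from the mean of the other strains at 1717 genes (12.2%) at 0 h and at 2846 (20.2%) at 6 h. Of the lower genes, 243 differed in level at 6 h only and 57 at 0 h only. Of the higher genes, 183 differed at 6 h only and 80 at 0 h only. At 6 h the 3 C57 mice all lay above the other 9 for 6.29% of the genes tested, and all below for 4.49%. Among the called genes they all lay above for 45.8% of the higher and all below for 49.4% of the lower ones. These levels hold the values that the calls were made on, so they describe the called genes and support nothing further.

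Heat shock proteins and their helpers held the most lower calls of the 28 lists examined. Of 21 tested members, 11 had a lower response in C57 and 0 a higher one, and the list's median difference was -0.82, against 0.09 for all genes. The median change was 0.75 in the mean of the other strains and -0.07 in C57. At 6 h 14 of the 21 were lower in C57 than in the others, against 1258 of all 14057 genes tested. At 0 h 1 of the 21, Hspb1, was higher in C57. Leaving out single mice gave 7 to 12 lower calls, with 7 without C57180, C57181 or C57236. Without SJL among the other strains 6 were called, and with the pancreatic covariate 6.

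Heat shock factors bind inverted repeats of a short GAA unit, so the 300 bases around the start of 3 of these genes are shown, from 250 bases before it to 50 after it, as given by RefSeq for GRCm38.p6. They belong to Hspa1b (chr17:34959189-34959488, minus strand), Hspb1 (chr5:135887669-135887968, plus strand) and Hspe1 (chr1:55087898-55088197, plus strand), and they were picked, after the matches were seen, to show lower genes with 1, 2 and 3 matches. Capitals mark the letters GAANNTTC or TTCNNGAA, where N is any base, and each pattern reads the same on both strands.
Hspa1b: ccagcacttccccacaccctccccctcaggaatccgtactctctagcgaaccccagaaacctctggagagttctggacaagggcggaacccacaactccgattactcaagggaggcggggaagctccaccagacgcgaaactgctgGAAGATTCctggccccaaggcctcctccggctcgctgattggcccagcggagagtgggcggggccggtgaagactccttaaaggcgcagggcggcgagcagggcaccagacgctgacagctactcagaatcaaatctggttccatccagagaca
Hspb1: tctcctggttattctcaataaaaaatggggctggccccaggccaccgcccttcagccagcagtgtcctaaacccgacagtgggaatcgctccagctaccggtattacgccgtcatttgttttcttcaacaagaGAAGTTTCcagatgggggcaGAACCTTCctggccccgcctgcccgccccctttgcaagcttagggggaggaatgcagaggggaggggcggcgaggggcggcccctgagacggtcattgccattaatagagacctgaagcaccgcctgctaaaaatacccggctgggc
Hspe1: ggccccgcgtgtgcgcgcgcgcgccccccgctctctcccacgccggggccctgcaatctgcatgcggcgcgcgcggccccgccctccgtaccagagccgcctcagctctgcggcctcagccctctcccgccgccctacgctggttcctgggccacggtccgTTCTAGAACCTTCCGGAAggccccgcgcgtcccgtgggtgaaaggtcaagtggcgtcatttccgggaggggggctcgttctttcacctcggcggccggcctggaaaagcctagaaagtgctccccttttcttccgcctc
In Hspe1 the 3 matches overlap, and Hspb1 has 2 matches and Hspa1b 1.

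Windows were given for 18 of the 21 heat shock genes, some with 2 or 3, and a gene was counted by its best window. At least 1 match was found for 12 of them (66.7%), against 4587 of all 27025 genes with a window (17%) and 15.1% of all single windows. Among the genes with a lower response in C57, 8 of 9 held a match and 4 held at least 2, and among the others 4 of 9 held a match and 1 held at least 2. At least 2 matches were found for 2.21% of all genes. Hspd1 and Hspe1 start head to head, so the same stretch with the same 3 matches is counted for both. Dnajb1, with a large difference, had no match in its 2 windows. Chordc1, which was not called, had 5 matches. Hspa1a, also not called, had the same matching letters as Hspa1b. A match describes letters and shows no binding.

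Hspa1b encodes an inducible HSP70, the chaperone that refolds damaged proteins. Its signal in the C57 mice was 1479, 3089 and 973.3 at 0 h and 394.3, 416.4 and 915.4 at 6 h. It went from 476.8, 566.1 and 470.8 to 7836, 9276 and 7167 in SJL and from 7058, 1665 and 2170 to 11390, 15130 and 12780 in SMJ. In DBA it went from 704.7, 1193 and 907.9 to 4069, 11470 and 1754. Every C57 mouse at 6 h thus lay below each of the other 9 mice, while at 0 h C57 overlapped with SMJ and DBA. The changes were -1.62 in C57 (adjusted p 0.0857, limma) and 3.99, 2.14 and 2.25 in SJL, SMJ and DBA, and the difference was -4.42 (SE 0.69, limma adjusted p 0.000514). Other probe sets of Hspa1b gave -4.80 and -4.31. Its near-identical neighbour Hspa1a, whose transcript an array may not tell apart, had a difference of -3.39 (SE 1.03) that missed the threshold (limma adjusted p 0.0564), with changes of 1.78 in C57 and 5.18 in the others.

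Dnajb1 encodes the HSP40 partner that hands substrates to HSP70. In C57 it went from 395.3, 449.9 and 355.9 to 1603, 944.6 and 796.8, a rise of 1.41 (limma adjusted p 0.0376). At 6 h it was 10820, 10560 and 5058 in SJL, 10170, 10790 and 11300 in SMJ and 6462, 7220 and 3128 in DBA. The 3 C57 mice had risen, yet each stayed below all mice of the other strains, whose mean change was 3.88. The difference was -2.47 (SE 0.50, limma adjusted p 0.0048). Hsp90aa1 encodes the inducible HSP90, which stabilises kinases and receptors. Its signal went from 5408, 5458 and 4661 to 3998, 4727 and 4395 in C57, where the change was not called, and at 6 h it was 7996 to 11660 in SJL, 11220 to 13840 in SMJ and 6015 to 8459 in DBA. The C57 mice were again below all others at 6 h, with a difference of -1.57 (SE 0.25, limma adjusted p 0.000597), and over the mean of its probe sets the call was lost (0.0514). Other probe sets of Hsp90aa1 gave -1.97, -2.04 and, for a dim one with a mean signal of 20.29, -0.53.

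Hspb1 encodes a small heat shock protein that holds unfolding proteins in solution. It went from 1913, 2213 and 804.8 to 597.5, 675.4 and 1053 in C57 and from 193.9, 246.8 and 236.9 to 1195, 2852 and 592 in SJL. In SMJ it was 1329 to 2083 at 0 h and 5099 to 7873 at 6 h, and in DBA 321.9 to 967.4 and 353.4 to 947.9. DBA and 1 SJL mouse thus overlapped with C57 at 6 h, and the gene changed by 2.48 in SJL, 1.89 in SMJ and 0.20 in DBA. The difference was -2.52 (SE 0.53, limma adjusted p 0.00572), and the level in C57 at 0 h was 1.36 above the others. Bag3 encodes a co-chaperone that steers damaged proteins to autophagy. It was 569.4, 521.6 and 555.3 in C57 at 6 h, close to its 493.4, 468.1 and 262.8 at 0 h. At 6 h it was 1051 to 3550 in SJL, 2854 to 3369 in SMJ and 561.9 to 1164 in DBA. DBA overlapped with C57, and the difference of -1.82 (SE 0.40, limma adjusted p 0.00895) was lost without SJL among the other strains (adjusted p 0.0657) and with the pancreatic covariate (0.0534). Hspe1, the lid of the mitochondrial chaperonin, was 3535 to 3993 in C57 at 6 h and 3754 to 4075 at 0 h, and its difference was -0.82 (SE 0.17, limma adjusted p 0.00494). DBA, with 3429 to 4624 at 6 h, overlapped with C57 for this gene.

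**Figure D2:**
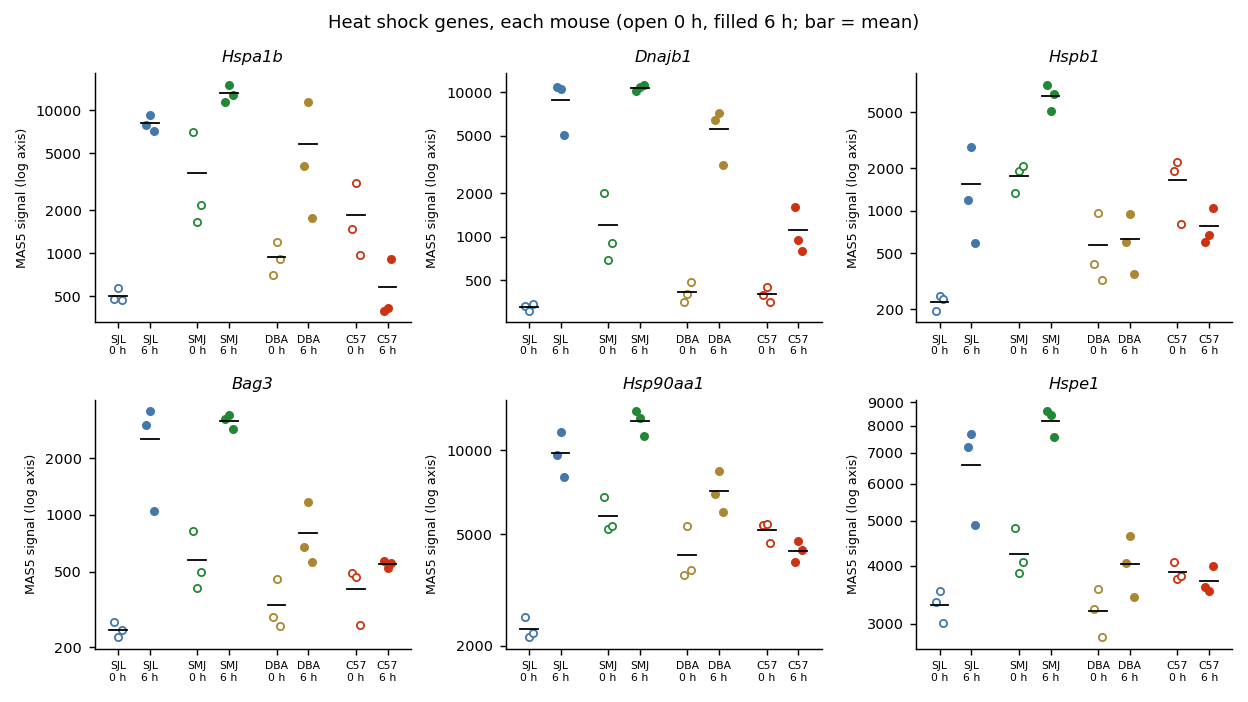
MAS5 signal on a log axis of 6 heat shock genes in every mouse at 0 h (open) and 6 h (filled), by strain, with the group mean as a bar. For Hspa1b, Dnajb1 and Hsp90aa1 the 3 C57 mice at 6 h lie below all 9 mice of the other strains. For Bag3 and Hspe1 they overlap with DBA, and for Hspb1 with DBA and 1 SJL mouse.

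The plot of the heat shock genes also shows that DBA had the smallest changes among the other strains for Hspb1, Bag3, Hsp90aa1 and Hspe1. At 0 h mouse SMJ56 stood apart, with 7058 for Hspa1b and 2013 for Dnajb1, and without it 12 of the 21 genes had a lower response. The same mouse stood apart at 0 h for Hmox1 and Atf3, stress genes given below. It had 5481 for Hmox1, against 447.4 and 561.1 in the other SMJ mice, and 953 for Atf3, against 98.17 and 140.6. The remaining lower genes of the list were Hsph1 (-1.88), the small heat shock protein gene Hspb8 (-1.27), Hspa8 (-0.92), Dnaja1 (-0.84) and the mitochondrial chaperonin gene Hspd1. The difference of Hspd1 was -0.52 to -0.43 with 1 mouse left out. Of the 24 mice left out in turn, 19 ended the call of Dnaja1, 20 that of Hspd1, 8 that of Hsph1 and 5 that of Hspa8. Adjusted p values then reached 0.12, 0.117, 0.103 and 0.108 (limma). The first 3 of these genes also lost their call with the covariate (0.175, 0.148 and 0.156). Dnaja1, Hspd1, Hsph1 and Hspa8 all lost it with no filter on low values and without SJL among the other strains. Dnaja1, Hspd1 and Hsph1 also lost it with only the 24 arrays of 0 h and 6 h. Dnaja1 and Hspd1 lost it as well under quantile normalization and without SMJ among the other strains. Hspb8 lost it with the covariate (0.0837) and over the mean of its probe sets (0.12). Stip1, Fkbp4 and Ahsa1, which assist HSP90, had differences of 0.03, 0.14 and -0.17 with no call.

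The integrated stress response and the endoplasmic reticulum's chaperones gave a mixed picture. Of 24 tested genes 3 had a lower and 1 a higher response, and the median difference was -0.15. Asns, which makes asparagine and is a target of ATF4, differed at the start: it was 776.9, 410.7 and 487.6 in C57 at 0 h and 19.8 to 201 in the others. At 6 h C57 had 243.9, 249.4 and 261.7 and the others 106.7 to 212.1, so the C57 mice were above the other 9 at both times. The level difference was 2.99 at 0 h, and the difference in response was -2.27 (SE 0.46, limma adjusted p 0.00451). Dnajb9, a co-chaperone of the reticulum's HSP70, was 1819, 1393 and 1960 in C57 at 6 h and 3065 to 4573 in the others, with a difference of -1.33 (limma adjusted p 0.00869). Xbp1, a factor that drives the unfolded protein response, had -0.67 (limma adjusted p 0.0344), which was lost when any 1 of 5 C57 mice was left out (up to 0.117 without C57182) and with the covariate. Ddit3, which encodes the death-promoting factor CHOP, rose by 3.95 in the others and had a difference of -2.26 that was not called (limma adjusted p 0.0516). Atf3 (-0.64), Atf4 (-0.06) and Ppp1r15a (0.00), other genes of the pathway, had no call.

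Fgf21, a liver hormone induced by fasting and by ATF4, was the higher gene of that list. It went from 464.4, 485 and 224.5 to 3404, 2900 and 3442 in C57 and from 352.2, 253.8 and 361.6 to 1335, 1147 and 575.4 in SJL. In SMJ it was 472.9 to 933.6 at 0 h and 263.2 to 324.9 at 6 h, and in DBA 649.6 to 1203 and 1491 to 2862. All 3 C57 mice at 6 h were above the other 9, and DBA came nearest. At 3 h DBA had 5990, 5011 and 3831 and C57 1998, 1195 and 1780, so that DBA was the higher strain at that time. The difference at 6 h was 2.58 (SE 0.60, limma adjusted p 0.013), and it lost its call without C57182 (0.0627) and without SMJ among the others (0.138).

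Of 14 tested markers of pericentral hepatocytes, 6 had a lower and 0 a higher response in C57, against 2.45% and 2.21% of all genes tested. Their median difference was -0.94, against 0.09 for all genes. The median change was -2.04 in C57 and -0.88 in the mean of the others. Each leave-out of a mouse gave 6 calls, though without C57237 not the same 6, since Axin2 lost its call there (limma adjusted p 0.0512). The summed signal of the list went from 40580 to 50320 down to 18190 to 27560 in the C57 mice. At 6 h it was 46480 to 54210 in SJL, 40720 to 46530 in SMJ and 42640 to 47800 in DBA, with no overlap with C57. Bright called genes weigh heavily in this sum, so it adds no separate support to the calls. Among them, the C57 mean went from 7776 to 727.7 for Oat and from 12810 to 7153 for Cyp2e1. In RNA from whole liver, fewer cells of a type and less RNA per cell cannot be told apart. Markers of periportal hepatocytes, at the other end of the lobule, had 0 calls of 10 (limma) and a median difference of 0.20, and 10 genes of proteins secreted by all hepatocytes had 0 calls and a median of 0.03. Among the latter Alb had a difference of -0.02 (limma adjusted p 0.979).

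Cyp1a2, one of the P450 enzymes that activate acetaminophen, went from 1967, 2890 and 3413 to 217.3, 162.2 and 625.7 in C57. At 6 h it was 3967 to 4298 in SJL, 1669 to 2390 in SMJ and 3282 to 4086 in DBA. The C57 mice thus lay below all others, after a level at 0 h that was already lower by 0.84 (limma adjusted p 0.0247). The change was -3.25 in C57 and -0.26, -1.0 and -0.51 in SJL, SMJ and DBA, and the difference was -2.66 (SE 0.35, limma adjusted p 4.92e-05). Cyp2e1, the main activating enzyme, was 11960, 12330 and 14140 in C57 at 0 h and 6182, 4650 and 10630 at 6 h. In the other strains it was 13310 to 19790 at 0 h and 15010 to 24030 at 6 h. It fell by 0.92 in C57 (limma adjusted p 0.00511), mouse C57237 least, and had no call in the others, with a difference of -1.20 (SE 0.25, limma adjusted p 0.00507). Of the 9 acetaminophen metabolism genes tested these 2 were lower and none was higher, and Cyp3a11 (0.05), Sult1a1 (0.26) and Gstp1 (-0.13), which act in activation, sulfation and glutathione coupling, had no call.

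Oat, an enzyme of ornithine breakdown that sits next to the central vein, went from 7142, 8816 and 7369 to 620, 463 and 1100 in C57. At 6 h it was 1899 to 3632 in SJL, 1099 to 1851 in SMJ and 1715 to 3343 in DBA. It fell in every strain, and 1 C57 mouse reached the lower edge of SMJ, with a difference of -1.85 (SE 0.33, limma adjusted p 0.00167). Gulo, which makes vitamin C in mice, was 1484, 1756 and 1709 in C57 at 0 h and 234, 212 and 201.3 at 6 h, below the 580.8 to 1921 of the others. Its difference was -1.92 (SE 0.25, limma adjusted p 4.41e-05). Lect2, a secreted chemotactic protein under Wnt control in liver, went from 233.6, 380.7 and 621.3 to 29.8, 7.657 and 43.58 in C57, while the others had 92.53 to 531.8 at 6 h, for a difference of -2.65 (SE 0.50, limma adjusted p 0.00256). Axin2, a general target of Wnt signalling, had -1.96 (limma adjusted p 0.0115), which was also lost over the mean of its probe sets (0.781). Slc1a2 (-1.60, limma adjusted p 0.264) and Glul (-0.22), both glutamate handling genes of the cells next to the vein, fell in C57 by 5.0 and 1.47 and in the others by 3.41 and 1.26, with no call for the difference. Rhbg and Tbx3 were not called either (-0.68 and -0.56).

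Among 11 tested markers of the liver's sinusoidal endothelium, 6 had a higher and 1 a lower response in C57, against 2.21% and 2.45% of all genes tested. Their median difference was 0.79, against 0.09 for all genes, and 4 members lay below 0. Without C57182 3 were higher, and with the pancreatic covariate 4 were. The summed signal of the list rose from 3746 to 4996 at 0 h to 5629 to 6292 at 6 h in the C57 mice, while at 6 h the others had 4067 to 4535, 3157 to 3374 and 3485 to 3722. This sum too holds values of called genes, such as Clec4g with a C57 mean of 920.5 at 0 h and 1781 at 6 h. Stab1 (0.15), Pecam1 (-0.03), Tie1 (-0.08) and Cdh5 (-0.27), also endothelial, were not called.

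Kdr encodes the main VEGF receptor. It was 238.2, 198.2 and 155.1 in C57 at 0 h and 345, 396.2 and 335.9 at 6 h, while SJL went from 381.5, 424.4 and 392.8 to 222.1, 259.8 and 227. In SMJ it was 141.3 to 254.9 and 122.9 to 167.9, and in DBA 203.6 to 279.8 and 101.5 to 186.8. It rose by 0.87 in C57 and fell by 0.63 in the mean of the others, so that C57 lay above all others at 6 h, with a difference of 1.5 (SE 0.27, limma adjusted p 0.00163). Clec4g, a lectin of sinusoidal cells, went from 827.3, 1084 and 850.5 to 1880, 1628 and 1835 in C57 and was 851.7 to 1433 in the others at 6 h. Its difference was 1.00 (SE 0.17, limma adjusted p 0.000953), and over the mean of its probe sets the call was lost (0.235). Oit3 was 644, 525.1 and 602.1 in C57 at 6 h and 161 to 334.1 in the others, with a difference of 0.99 (SE 0.22, limma adjusted p 0.00897).

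Stab2, a scavenger receptor for hyaluronan, was 811.8, 724.7 and 755.9 in C57 at 6 h and 277.5 to 536.7 in the others, with a difference of 0.99 (limma adjusted p 0.0156). Without C57182 the calls of Oit3 (0.0573) and Stab2 (0.0784) were lost. Tek, the angiopoietin receptor, had 0.93 (limma adjusted p 0.0147, 0.0886 without C57236 and 0.0879 with the covariate), and Eng, a TGF beta co-receptor, 0.79 (limma adjusted p 0.0362, 0.176 without C57182 and 0.0986 with the covariate). The call of Eng was lost when any 1 of 9 mice, of all strains, was left out. It was also lost with no filter on low values, with only the 24 arrays of 0 h and 6 h, and without SJL or SMJ among the other strains. Lyve1, another hyaluronan receptor, went the other way: it was 1563, 581.9 and 1336 in C57 at 0 h and 746, 703.7 and 1021 at 6 h. Its difference of -1.38 (SE 0.33, limma adjusted p 0.015) comes with a level 2.07 above the others at 0 h, and it was lost without C57180 (0.0697), C57182 (0.066) or C57236 (0.0619) and with the covariate (0.0939).

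**Figure D3:**
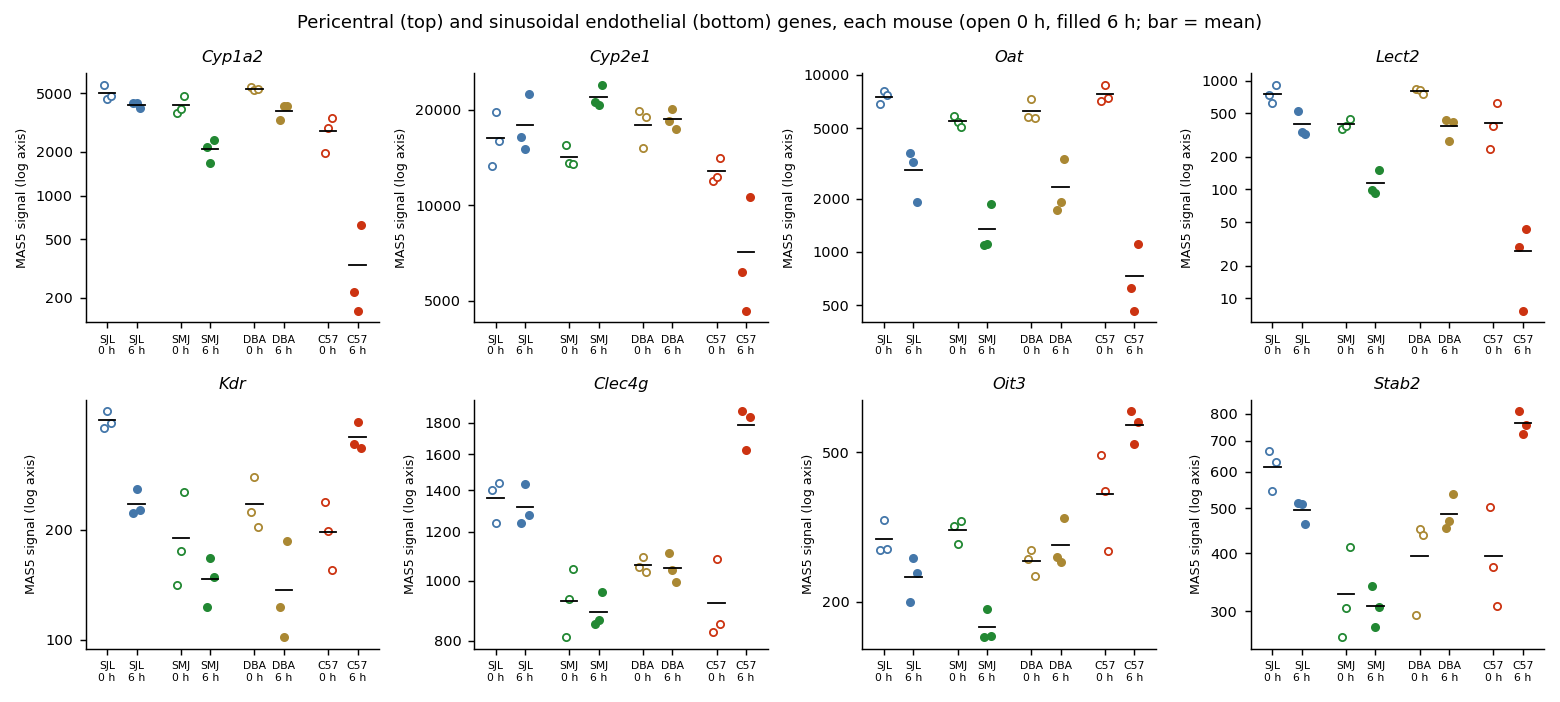
MAS5 signal on a log axis of 4 pericentral genes (top) and 4 sinusoidal endothelial genes (bottom) in every mouse at 0 h (open) and 6 h (filled), by strain, with the group mean as a bar. At 6 h the C57 mice are lowest for Cyp1a2, Cyp2e1 and Lect2 and highest for Kdr, Clec4g, Oit3 and Stab2.

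The plot of the zonal and endothelial genes places these changes side by side. Markers of other cell types in the liver showed few calls. Stellate cells and fibroblasts had 2 higher of 10, Pdgfrb (0.89) and Reln (0.66), against 2.21% of all genes tested. Pdgfrb was lost over the mean of its probe sets (limma adjusted p 0.962), as was Reln (0.976, and 0.0596 with the covariate), and each was lost without at least 3 single C57 mice. The summed signal of the stellate list was 5499 to 6589 in C57 at 6 h, 3716 to 4288 at 0 h, and 4152 to 5729 in the others at 6 h. Kupffer cell markers had 0 calls of 14 and neutrophil markers 0 of 10 (limma), and their sums at 6 h were 8748 to 9579 and 1052 to 1221 in C57, within the 6192 to 9759 and 518 to 2622 of the others. Lymphocyte markers had 0 calls of 7 with a median difference of 0.94, at differences of 0.24 to 1.53. Sox9, a bile duct and progenitor cell factor, was 74.48, 104.7 and 70.32 in C57 at 6 h and 134.4 to 299.7 in the others. It rose by 1.89 in the others with no call in C57, and the difference was -2.16 (SE 0.35, limma adjusted p 0.000693). Of 3 erythroid markers Alas2 was lower (-1.77, limma adjusted p 0.0207), with the call lost without C57182, C57233 or C57236 and with the covariate.

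Among signalling genes, Nr4a1, a nuclear receptor of the immediate early class, had a higher response. It went from 135.2, 105 and 127.2 to 2433, 4031 and 1825 in C57 and from 56.81, 85.11 and 58.46 to 417.5, 770 and 1075 in DBA. At 6 h it was 105.1 to 195.2 in SJL and 431 to 658.1 in SMJ. C57 was above all others at 6 h, with a difference of 2.41 (SE 0.57, limma adjusted p 0.0151), lost without C57236 (0.0723) and without SJL among the others (0.101). Of 20 immediate early genes tested, besides Nr4a1 only Maff, a small MAF factor, was called, with a lower response (-1.58, limma adjusted p 0.0294) that was lost without C57180, C57182, C57233 or C57237 and with the covariate (0.102).

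Trp53inp1, a p53 target that promotes autophagy, rose by 2.05 in the others with no call in C57. It was 2296, 1900 and 4443 in C57 at 0 h and 1440, 2487 and 2645 at 6 h. It went from 957.7, 1216 and 741.3 to 3758, 3749 and 3289 in SJL and from 609, 712.7 and 666.2 to 7104, 6528 and 6724 in DBA, while SMJ had 1414 to 2927 and 2596 to 4555. The C57 mice were high at 0 h and, apart from an overlap with SMJ, low at 6 h, with a difference of -2.39 (SE 0.38, limma adjusted p 0.000597). It was 1 of 12 p53 targets called. Cdkn1a (-1.65, limma adjusted p 0.113) and Mdm2 (-0.65) were not called. Of 19 targets of NRF2, which senses electrophiles, Osgin1 alone was called (1.46, limma adjusted p 0.019), with the call lost without C57181, C57182, C57233 or C57236, and Hmox1 (1.22, limma adjusted p 0.257), Gclc (0.28) and Nqo1 (-0.09) were not.

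Among the largest lower differences, Cdc42ep5, an effector of the small GTPase CDC42, had -3.40 (SE 0.33, limma adjusted p 7.38e-07). It was 804.8, 376 and 673.4 in C57 at 0 h and 70.76, 81.82 and 135.1 at 6 h. In SMJ it went from 60.17, 69.27 and 99.25 to 197.6, 332.9 and 354.1, in SJL it was 69.85 to 151.7 and 68.55 to 80.7, and in DBA 100.7 to 168.4 and 229.9 to 280.2. The C57 mice were above all others at 0 h and overlapped with SJL at 6 h. Neat1, the RNA scaffold of nuclear paraspeckles, fell from 2866, 3246 and 4667 to 716, 676.2 and 819.5 in C57, and the others had 750.1 to 3992 at 6 h. Its difference was -2.61 (SE 0.35, limma adjusted p 5.65e-05), but a dimmer probe set of Neat1 went the opposite way, with 1.13.

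**Figure D4:**
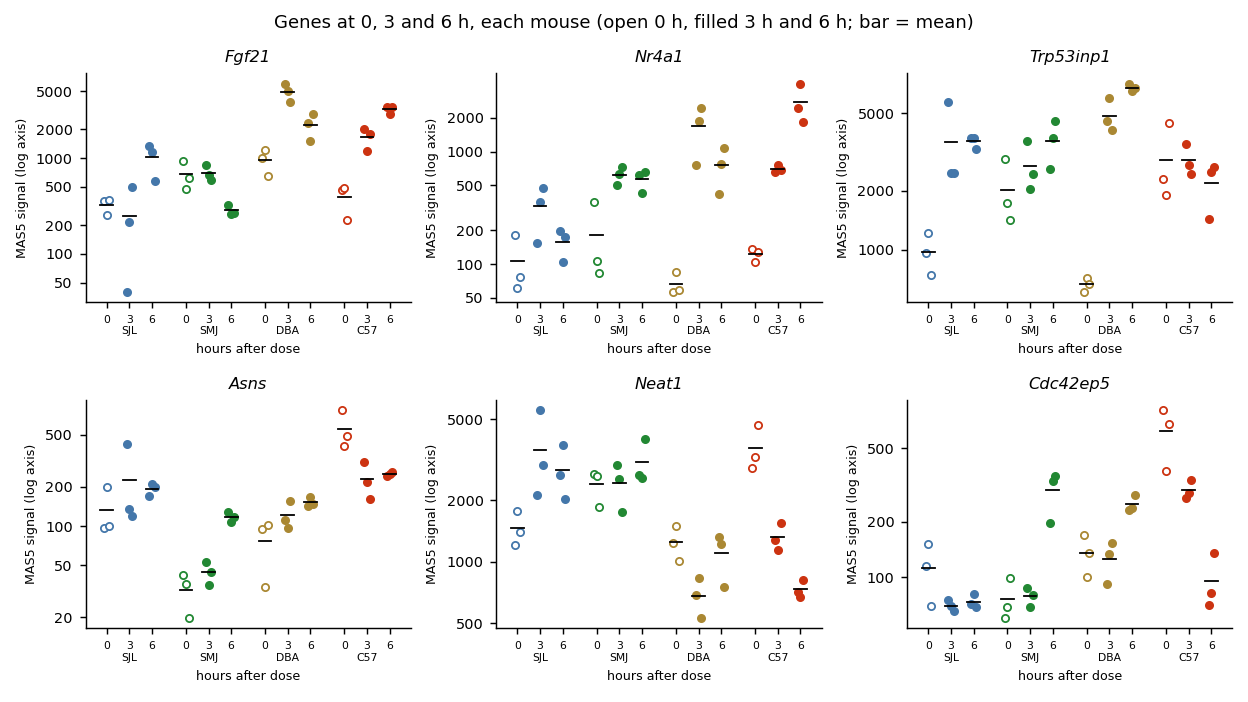
MAS5 signal on a log axis of 6 genes in every mouse at 0 h (open), 3 h and 6 h (filled), by strain, with the group mean as a bar. C57 is the highest strain at 6 h for Fgf21 and Nr4a1, and at 0 h for Asns and Cdc42ep5, which are lower at 3 h and 6 h in C57.

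The plot of 3 times shows where C57 stood on the way. The differences at 3 h, which share their 0 h mice with those at 6 h, were 1.61 for Fgf21, -0.21 for Nr4a1, -1.60 for Trp53inp1, -1.87 for Asns, -1.52 for Neat1 and -0.78 for Cdc42ep5, none of them called (limma adjusted p 0.11 to 0.96). Nr4a1 in DBA was higher at 3 h than at 6 h, and in C57 it was highest at 6 h.

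Several liver enzymes were among the other large lower differences. Akr1c6, a hydroxysteroid dehydrogenase, was 155, 226.4 and 468.2 in C57 at 6 h and 1491 to 4421 in the others (-2.57, limma adjusted p 0.000953). Rdh9, a retinol dehydrogenase, was 160.8, 118.4 and 382.2 in C57 and 288.5 to 1596 in the others (-2.60, limma adjusted p 0.000953), with 1 SMJ mouse in the C57 range. Cyp4a12a, a male-biased fatty acid hydroxylase, went from 4564, 4376 and 4140 to 807, 1013 and 2455 in C57, and the others had 3336 to 7657 at 6 h. Its difference was -1.79 (SE 0.29, limma adjusted p 0.000618), and it was 1 of 2 lower genes among 12 growth hormone dependent and sex-biased genes. The other, Moxd1, had the largest lower difference among genes with a name (-4.49, SE 1.26, limma adjusted p 0.0391), from 194.3, 157.2 and 582.5 to 5.215, 20.59 and 2.291, but its call was lost when any 1 of 11 mice was left out and with the covariate (0.131). Hsd3b5, also male-biased, had -2.59 with no call (limma adjusted p 0.146).

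Some other large lower differences came with a level above the mean of the others in C57 at 0 h, as for Fitm1 (2.71), Ddit4 (2.79), Nrg4 (2.38) and Tg (2.93), and some had no call at 0 h. Fitm1, which helps to form lipid droplets, was 177.8, 306.3 and 268.8 in C57 at 0 h and 20.24, 21.33 and 27.46 at 6 h, while SJL and SMJ had 9.454 to 42.62 over both times (-2.92, limma adjusted p 0.000953). DBA, with 234.8, 134.7 and 65.29 at 0 h and 64.19 to 86.66 at 6 h, overlapped with C57 at 0 h. Ddit4, an inhibitor of mTOR signalling, was 1715, 1029 and 3010 at 0 h and 354.9, 294 and 370.6 at 6 h, within the 226.6 to 739.5 of the others (-2.80, limma adjusted p 0.00471). Nrg4, a secreted ligand of ERBB4, rose by 2.24 in the others and had no call in C57, where it was 551.3, 213 and 615.5 at 0 h (-2.88, limma adjusted p 0.00209). Slc10a2, a bile acid transporter, rose by 1.79 in the others and had no call in C57 (-2.76, limma adjusted p 0.00656), and its level at 0 h was not called. Scara5, a ferritin receptor, had -3.47 (limma adjusted p 0.00399), lost over the mean of its probe sets (0.223). The calls of Tg (-3.62) and Nat8f4 (-3.06) were lost with the covariate and without single C57 mice.

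Among the largest higher differences most signals were low. Tuba3b, a tubulin gene, had 3.72 (SE 0.72, limma adjusted p 0.00326), from 4.128, 3.048 and 2.193 to 29.74, 43.53 and 39.85 in C57, while the others had 2.835 to 29.07 at 6 h. The C57 values at 0 h lie near the offset of 2.77, so the size of the difference depends on it, and with an offset of 16 it was 1.95. Of the 15 largest higher differences named by the rule, Tuba3b alone kept its call with every mouse left out. Arhgef15 (3.13), Slc38a5 (3.02), Rufy2 (2.84), Slc30a3 (2.83), Hes7 (2.70), Plac1 (2.68), Slc39a2 (2.67), Hdgfl3 (2.48), Abca7 (2.46), Dnm1 (2.44), Slc9a7 (2.40) and Misp (2.14) each lost it without at least 2 of the C57 mice, and Slc38a5, Hes7, Plac1, Slc39a2, Dnm1, Slc9a7 and Misp also with the covariate. The call of Plac1 was lost when any 1 of 19 mice was left out. Of all higher genes 14.8%, and of all lower genes 4.36%, had a highest group mean under 100, against 37.7% of the genes tested.

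Genes of glucose and glycogen handling had 4 higher and 1 lower of 12, against 2.21% and 2.45% of all genes tested, with a median difference of 0.44. Pygl, the phosphorylase that breaks down liver glycogen, went from 3266, 3418 and 3313 to 5125, 6219 and 5434 in C57 and was 1870 to 3401 in the others at 6 h. C57 lay above all others, with a difference of 0.95 (SE 0.20, limma adjusted p 0.00552) that was kept with every mouse left out. Slc2a2, the liver's glucose transporter, went from 1396, 3006 and 2146 to 4932, 4540 and 4606 in C57 (1.39, limma adjusted p 0.0156), and Pklr, liver pyruvate kinase, from 150.8, 303.7 and 272.4 to 634.9, 673.7 and 455.9 (1.59, limma adjusted p 0.0177). Slc2a2 lost its call without C57180 (0.073), and Pklr without C57180 (0.0767), C57233 (0.0505) or C57236 (0.0673). With the covariate both lost it (0.101 and 0.114), as did the glycogen synthase gene Gys2 (0.66, 0.0837 with the covariate). The insulin receptor substrate gene Irs2 was the lower one (-1.19, limma adjusted p 0.0488). The list had 1 higher call without C57180, 2 without C57233 and 1 with the covariate.

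Single members of other metabolic lists were called, where 2.21% of all genes tested had a higher and 2.45% a lower response. Slc10a1, which takes bile acids up from the blood, was 5760, 6698 and 7259 in C57 at 0 h and 9993, 9264 and 8968 at 6 h, above the 5509 to 7368 of the others (0.64, SE 0.14, limma adjusted p 0.0077). Dbp, an output gene of the circadian clock, went from 62.95, 80.54 and 82.23 to 221.2, 159.6 and 204.4 in C57, and DBA had 118.8 to 179.5 at 6 h (1.63, SE 0.32, limma adjusted p 0.00326). Its relative Tef had 0.84 (limma adjusted p 0.029), lost without C57180, C57182, C57233 or C57236, and the other 13 of 15 clock genes had no call. Acot1, a thioesterase under PPARA control, fell from 4341, 3198 and 3370 to 976.4, 1003 and 1041 in C57, below the 1488 to 3846 of the others (-1.56, SE 0.31, limma adjusted p 0.00451). Of 19 genes of fatty acid oxidation Plin2 was also lower (-0.60), but its call was lost when any 1 of 16 mice was left out and with the covariate (0.0926).

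The remaining lists held few calls or none. Of 31 proteasome subunit genes 29 had a difference below 0 (median -0.26, against 0.09 for all genes), and 2 were called. These were Psma5 (-0.87, limma adjusted p 0.00231, and 0.701 over the mean of its probe sets) and Psmd7 (-0.50, lost when any 1 of 18 mice was left out and with the covariate). Other probe sets of Psma5 gave -0.72 and, for a dim one with a mean signal of 27.1, 0.88. In level, 21 of the 31 were higher in C57 at 0 h, against 821 of all 14057 genes tested. Of 15 methionine cycle and sulfur genes Csad (-1.71) and Pemt (-0.46) were lower, and Bhmt2 (0.43, limma adjusted p 0.247) had no call. Csad lost its call when any 1 of 3 mice was left out and with the covariate, and Pemt when any 1 of 13 mice was left out. Of 15 genes of fatty acid synthesis Acly was higher (1.01) and of 14 of cholesterol synthesis Mvd was (1.39). The call of Acly was lost without C57180, C57182, C57233 or C57236 and with the covariate. That of Mvd was lost when any 1 of 14 mice, of all 4 strains, was left out and with the covariate. Cytokines and adhesion molecules had 0 calls of 20 (limma) with a median difference of -0.43. Acute phase proteins had 0 of 19 with a median of -0.18. Interferon-stimulated genes had 0 of 17 with a median of 0.27.

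**Figure D5:**
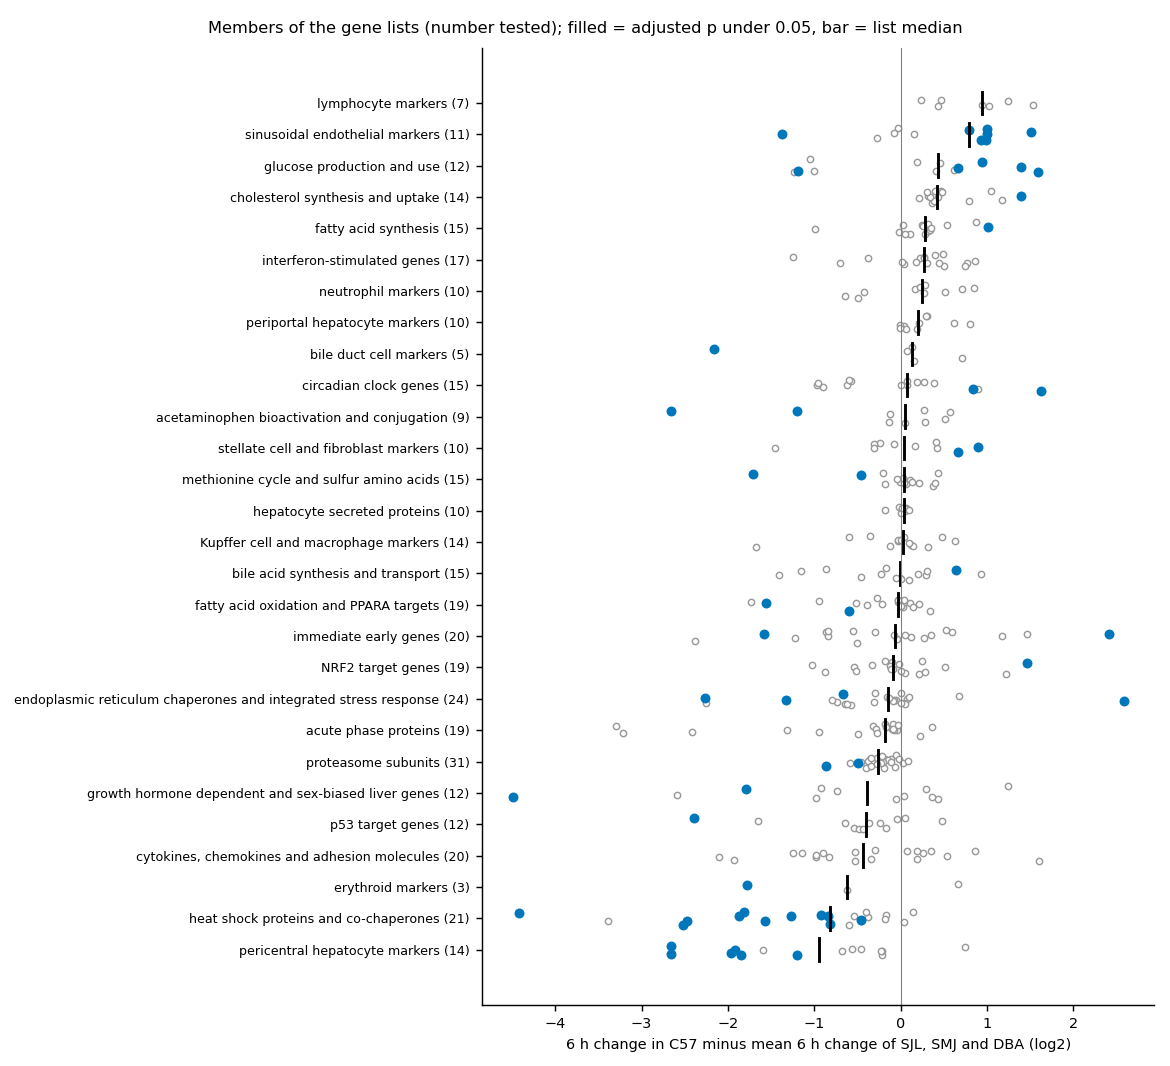
Difference in the 6 h change (C57 minus the mean of SJL, SMJ and DBA, log2) of each tested member of the 28 lists, with the number tested in brackets, filled where limma's adjusted p was under 0.05, and the list median as a bar. Pericentral markers and heat shock genes have the lowest medians (-0.94 and -0.82), and sinusoidal endothelial markers hold the most higher calls (6).

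The plot of the lists sets these groups on 1 scale. A gene often has several probe sets on the array, which gives a further look at the direction in the same mice. For the higher genes 311 other probe sets were found, and 265 (85.2%) had a difference above 0, 111 of them at an unadjusted limma p under 0.05. For the lower genes 398 were found, and 315 (79.1%) had one below 0, 203 of them at such a p. The share over all probe sets was not computed, and the median difference over all genes tested was 0.09. These probe sets were read on the same arrays as the calls, so they add no separate support.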

How the data were processed

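Biotin-labelled total RNA of 36 livers had been hybridised to Affymetrix arrays. The deposited values are intensity on a linear scale, made with MAS5 per the submitters' processing notes (its version is not given in the sources used here), and each array's 2% trimmed mean was 150. Of 45101 probe sets, 64 controls were left out and 34945 named 1 gene, 932 several and 9160 none. A gene was its probe set with the highest mean log2 signal. Probe sets marked _x_at, which may bind other transcripts, were passed over where the gene had another. Those marked _s_at, which may be shared between transcripts, were kept, as for Hspe1, Rdh9, Dbp, Xbp1 and Bhmt2. Of 18193 genes, 14057 with at least 3 arrays above 30.8, the median, were tested on log2(signal + 2.77), the offset being the 10th percentile. Group means of 12 groups were fitted over 36 arrays with limma 3.58.1 in R 4.3.3 (24 residual degrees of freedom), two-sided, at a threshold of 0.05, and the procedure was tested on simulated data. No batch is given in the labels.

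Named genes were the 15 largest differences each way that lay outside the range of the other strains, the 4 called members with the smallest p in each list, and 10 fixed genes. Heat shock, pericentral and endothelial members beyond these, and uncalled members given for contrast, were named after their values were seen. Members and lists were chosen with earlier results of these data known. Alternatives were 75th percentile scaling, quantile normalization, an offset of 16, other filters, 24 arrays only, the mean of a gene's probe sets, a robust trended prior, each strain or mouse left out, and a pancreatic covariate. Genes without a usable probe set were not analysed here.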

Additional observations from a re-analysis of the deposited data

Results flagged for a closer look

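Some genes of the C57 comparison also differed between the other strains, so that the mean of these stands for unlike responses. The F test among SJL, SMJ and DBA gave adjusted p values (limma) of 0.0039 for Alas2, 0.0075 for Cdc42ep5, 0.018 for Trp53inp1, 0.03 for Osgin1, 0.031 for Nrg4 and 0.042 for Misp. Cdc42ep5 changed by -0.53 in SJL, 1.90 in SMJ and 0.90 in DBA. Trp53inp1 changed by 1.91, 0.87 and 3.35, and Nrg4 by 0.71, 3.90 and 2.11, in the same order. Osgin1 changed by 3.5, 2.19 and 1.34. For each of the genes with an F test given here the C57 change was outside the range of the other strains. This sets them apart in no way, since it held for 99.4% of the higher and 99.7% of the lower genes.

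Probe sets that name no single gene also carried the comparison. Of 10092 such probe sets 5063 were tested, and 41 were higher and 45 lower in the C57 6 h response (1.7%).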

How the results depend on the processing

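No paired analysis was possible because each mouse has its own number and was sampled once. The main counts were 310 higher and 344 lower genes. Dividing by the 75th percentile gave 203 higher. Leaving SMJ out of the other strains gave 190 higher. The pancreatic covariate, chosen after seeing the data, gave 149 higher, 140 lower and 29 genes called against each strain, in place of 66. The count at 3 h, 0 in the fit above, was 18 with a robust trended prior and 20 with only genes above 100 on at least 3 arrays, a filter also chosen after seeing the data. Genes that differed among SJL, SMJ and DBA, 172 in the fit above, were 107 with no filter, 260 with the robust prior and 326 above 100. With 1 mouse left out the counts were 119 to 337 higher, 178 to 362 lower, 863 to 1461 for the C57 change, 33 to 83 against each strain, 0 to 13 at 3 h, 919 to 1820 for the level at 0 h, 1882 to 2879 at 6 h and 76 to 191 among the other strains. The lowest came without C57236 for the first 4, without C57182 and C57233 for the levels and without SMJ58 for the last, which was also over 1.5 times smaller without SJL2, SJL44, SJL45, SMJ57, SMJ101, DBA113, DBA115, DBA168 or DBA169. Genes called against each strain were 37 without C57182 and 40 without C57233, and 8 and 13 genes were called at 3 h without SJL2 and C57181. The uncalled difference of Alb turned to 0.0098 under quantile normalization and 0.21 without SMJ, and lay between -0.0935 and 0.0679 with 1 mouse left out. Reln turned to -0.04 over the mean of its probe sets. Of 77 named genes called, 34 kept their call with every mouse left out, and 28 lost it in none of the 13 other alternatives in which they were tested (64 of the 77 were tested above 100). The causes of these shifts were not tested.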
